A study of Mus musculus with 8 samples.

Results

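*Ccnb1ip1*, *Rnf212*, *Hfm1*, *Msh4*, *Msh5*, *Mlh3*, *Cntd1* and *Tex11* are genes whose products choose the meiotic recombination sites that become crossovers and resolve them. They were found in the deposited table by gene name on a standard chromosome, 8 of the 22603 genes in the table, and all 8 passed the filter on low values that left 19462 protein-coding genes. RNA-seq was performed on early-to-mid pachytene spermatocytes purified from mouse testis by fluorescence-activated cell sorting, with 2 wildtype samples and 2 samples of a *Setdb1* conditional knockout (cKO), to ask how loss of SETDB1, an H3K9 methyltransferase, alters meiotic transcription. RNA came from 500 sorted cells and was amplified by Smart-seq2, a method for small amounts of RNA.

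The wildtype cells came from male C57BL/6J mice at postnatal day 15, recorded in the sample descriptions as C57BL/6, without Cre, a floxed allele or a reporter. The cKO males carried *Setdb1* flox/-, the *Ngn3-Cre* transgene and a ROSA26-EYFP Cre reporter on that background, and were of postnatal day 15 or older, with no age given per sample. *Ngn3-Cre* is active in male germ cells from the spermatogonial stage and also in gut and pancreas. The wildtype mice lack these alleles, and the cKO mice may have been older. Effects of the alleles and of age cannot be told apart from that of *Setdb1* loss. The samples of a genotype are not said to come from separate mice, so the p-values reflect the variation among these samples alone, and that variation may be technical. *Setdb1* RNA was listed at 56.9 and 59.3 TPM (a length-corrected share of all transcripts) in wildtype and at 28.7 and 37.2 TPM in cKO. Its difference missed the threshold (log2 fold change -0.81, limma adjusted p = 0.269). The deletion removes only the core of the catalytic domain, so the level of the whole gene is a weak check of the genotype.

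Crossovers are the exchanges between homologous chromosomes that hold the homologues together until they separate. In early prophase many recombination intermediates are bound by the MSH4-MSH5 heterodimer, with the help of the DNA helicase HFM1 and of TEX11, a mammalian relative of yeast Zip4. During pachynema the RING-finger proteins RNF212 and CCNB1IP1 (also called HEI10) and the cyclin-related CNTD1 narrow these sites to a few designated ones, where an endonuclease that contains MLH3 completes the crossover.

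Most of these genes had lower levels in the cKO cells. *Ccnb1ip1*, *Cntd1*, *Hfm1* and *Msh4* fell past the threshold (limma on log2(TPM + 1), Benjamini-Hochberg adjusted p under 0.2 over all genes tested), and none rose. These were 4 of the 8 genes, whereas 1.11% of all genes tested fell and 3.48% rose. At an unadjusted p under 0.05, 5 were lower and 1 higher. The share of all genes at that unadjusted level was not counted, so this count and those of the lists below have no background. The 7 autosomal members all had negative log2 fold changes, with a median of -1.08 (-1.32 for cKO replicate 1, -0.95 for replicate 2), beside a median of 0.05 over all autosomal genes. Both cKO samples lay below both wildtype samples for 6 members, an arrangement seen in 18.1% of all genes, and above them for *Tex11*, an arrangement seen in 26.3%. *Mlh3* overlapped between the genotypes. In these pooled cells, fewer cells with a transcript and less transcript per cell cannot be told apart.

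The number of calls depended on the libraries in the fit, and so did the number among all genes. Without a cKO sample only 1 is left in that group, so effect sizes alone are given. Without cKO replicate 2 the log2 fold changes of *Ccnb1ip1*, *Cntd1*, *Hfm1* and *Msh4* were -1.93, -1.97, -1.32 and -1.21. Without cKO replicate 1 they were -3.07, -0.95, -0.99 and -0.95. Without wildtype replicate 1 or 2 the spread comes from the cKO samples alone and the lone wildtype sample is assumed to vary like them; 0 of all genes tested passed in either fit, so these fits say nothing of the 8 genes' calls, and the log2 fold changes of *Ccnb1ip1* were then -2.42 and -2.57. Under quantile normalization or without a trend in the moderation *Ccnb1ip1* alone passed.

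**Figure D1:**
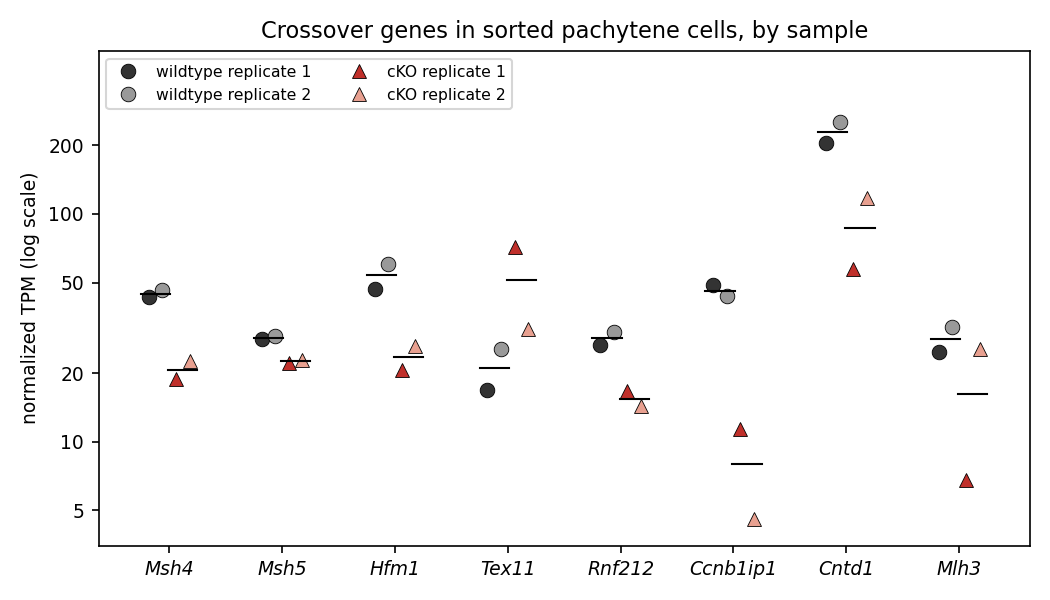
TPM of each of the 8 crossover genes (log axis) in the 2 wildtype and 2 cKO samples. Points are single samples; the cKO points of *Ccnb1ip1* (11.4 and 4.60 TPM) lie farthest below their wildtype points, and only *Tex11* has both cKO points above the wildtype ones.

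The sequence before the start site is shown for the 4 genes that fell and for *Msh5*, whose product is the partner of MSH4 and whose own transcript did not pass the threshold. Each line gives the 250 bases upstream of the first RefSeq start site (build GRCm38.p6), 5′ to 3′ on the strand of the gene. Capitals mark 2 short motifs on either strand: AACNG, the core bound by MYB factors such as A-MYB (*Mybl1*), a regulator of pachytene transcription, and CCTCAG, the core of the motif bound by STRA8 and MEIOSIN, which switch on meiotic genes. The windows are chr14:50795729-50795978 (*Ccnb1ip1*, minus strand), chr11:101278953-101279202 (*Cntd1*, plus), chr5:106925891-106926140 (*Hfm1*, minus), chr3:153904892-153905141 (*Msh4*, minus) and chr17:35046623-35046872 (*Msh5*, minus).
*Ccnb1ip1*: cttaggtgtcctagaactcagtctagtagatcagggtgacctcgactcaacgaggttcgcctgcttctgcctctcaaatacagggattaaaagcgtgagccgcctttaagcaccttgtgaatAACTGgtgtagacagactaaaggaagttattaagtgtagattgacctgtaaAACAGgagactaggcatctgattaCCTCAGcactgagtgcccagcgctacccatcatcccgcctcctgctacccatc
*Cntd1*: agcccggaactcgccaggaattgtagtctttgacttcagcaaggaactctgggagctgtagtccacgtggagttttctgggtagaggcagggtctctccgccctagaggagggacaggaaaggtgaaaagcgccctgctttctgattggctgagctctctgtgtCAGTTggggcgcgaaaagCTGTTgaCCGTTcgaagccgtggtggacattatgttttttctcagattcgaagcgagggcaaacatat
*Hfm1*: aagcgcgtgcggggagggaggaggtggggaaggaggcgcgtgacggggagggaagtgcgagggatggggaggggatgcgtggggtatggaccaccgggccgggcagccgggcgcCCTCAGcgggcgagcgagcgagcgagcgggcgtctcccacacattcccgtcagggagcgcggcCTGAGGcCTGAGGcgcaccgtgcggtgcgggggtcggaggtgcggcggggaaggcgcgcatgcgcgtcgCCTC
*Msh4*: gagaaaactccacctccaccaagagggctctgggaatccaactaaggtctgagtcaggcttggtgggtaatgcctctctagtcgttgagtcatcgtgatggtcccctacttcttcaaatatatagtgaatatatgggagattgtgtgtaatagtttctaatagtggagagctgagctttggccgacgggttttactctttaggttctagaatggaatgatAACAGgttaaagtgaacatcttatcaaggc
*Msh5*: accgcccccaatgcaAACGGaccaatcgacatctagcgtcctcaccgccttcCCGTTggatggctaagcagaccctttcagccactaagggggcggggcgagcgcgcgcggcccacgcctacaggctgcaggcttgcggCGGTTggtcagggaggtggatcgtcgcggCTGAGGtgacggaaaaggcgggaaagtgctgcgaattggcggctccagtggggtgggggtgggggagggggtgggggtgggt

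The upstream sequences differ from gene to gene. *Cntd1* holds 3 matches to AACNG, all on the opposite strand and close to its start. *Hfm1* holds 3 whole matches to CCTCAG in these 250 bases, and a further one spans the start, so that the printed line ends within it. *Ccnb1ip1* has 2 matches to AACNG and 1 to CCTCAG, and *Msh5* has 3 and 1. *Msh4* has 1 AACNG match, near its start. The RefSeq start used for each of these genes lies inside the span given for it in the GENCODE annotation. That of *Ccnb1ip1*, at 50795728, lies far inside its span of 50789248 to 50807732. The printed bases of *Ccnb1ip1*, *Hfm1* and *Msh4* lie wholly within their annotated genes.

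In windows of 300 bases, from 250 before to 50 after a start, AACNG was present in 80.3% of the 32851 windows of all genes in the RefSeq set and CCTCAG in 26.8%. A match to AACNG is thus common, and all 7 members with a window held at least 1, with 1 each in *Rnf212* and *Mlh3*. CCTCAG occurred in *Ccnb1ip1*, *Hfm1* and *Msh5* and not in *Rnf212*, *Msh4*, *Mlh3* or *Cntd1*. The 4 matches of *Hfm1* are a number reached by 0.107% of windows, in the most GC-rich window of the 7 (75.3% GC, beside a median of 52.7% over all windows). The longer MYB form TAACGG, which contains an AACNG match, was found in *Msh4* alone of the members (2.76% of all windows), and the cAMP response element core TGACGT in none of them (7.51%). As many as 3 AACNG matches, the number in *Cntd1* and *Msh5*, or more were found in 27.0% of windows. *Msh5*, which did not pass the threshold, holds both motifs. Whether motif matches go with the falls was not tested.

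The regulators that bind such motifs and others known in the pachytene programme made up 6 genes. Of these, 1 rose and none fell, beside 3.48% and 1.11% of all genes tested (also 1 and 0 at an unadjusted p under 0.05). This was *Gm4969*, listed in RefSeq as a synonym of *Meiosin*, at 20.2 and 25.6 TPM in wildtype against 49.5 and 53.0 TPM in cKO (log2 fold change 1.13, limma adjusted p = 0.164). Its genotypes do not overlap, but it passed in only 8 of 14 alternatives and missed the threshold under rescaling to autosomal genes (adjusted p = 0.207), under quantile normalization (0.224), without a trend (0.259) and without cKO replicate 1 (0.214), as well as in the fits without a wildtype sample, in which no gene passed. *Stra8*, the partner of MEIOSIN, was at 52.1 and 32.7 TPM against 92.9 and 49.8 TPM (adjusted p = 0.495), and its genotypes overlap. *Mybl1* was at 10.9 and 7.53 TPM against 5.15 and 8.51 TPM (adjusted p = 0.803), and *Crem*, a regulator of spermatid genes, had a log2 fold change of 0.23 (adjusted p = 0.776). The latter 3 missed the threshold, as did *Rfx2* and *Tcfl5*, with log2 fold changes of -0.26 and 0.07.

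*Msh4* and *Msh5* encode the subunits of the heterodimer that encloses and stabilises recombination intermediates. *Msh4* (ENSMUSG00000005493, chr3:153857149-153906138, minus strand, GRCm38, as are the gene positions that follow) was at 43.2 and 46.2 TPM in wildtype and fell to 18.8 and 22.6 TPM in cKO. This is 46.3% of the wildtype mean, with a log2 fold change of -1.08 ± 0.28 (SE, n = 2 per genotype) and a limma adjusted p of 0.183. *Msh5* (ENSMUSG00000007035, chr17:35028605-35046745, minus strand) was at 28.1 and 29.2 TPM in wildtype against 22.2 and 22.9 TPM in cKO. Its samples also do not overlap, but the difference was small and missed the threshold (log2 fold change -0.33, 95% confidence interval -1.01 to 0.35, adjusted p = 0.699).

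The ratio of *Msh4* to *Msh5*, which does not depend on how a sample is scaled, was 1.54 and 1.58 in wildtype and 0.845 and 0.988 in cKO. *Msh4* was the more abundant of the 2 transcripts in both wildtype samples and the less abundant in both cKO samples. The log2 difference of the ratios was -0.77, and it stayed between -0.88 and -0.66 when any single sample was left out. An exact two-sided permutation test gave p = 0.33, the smallest that 2 samples against 2 allow, so no ratio here can pass a threshold of 0.05.

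*Hfm1* encodes the helicase, related to yeast Mer3, that acts with MSH4-MSH5. It lies at chr5:106840192-106926321 (ENSMUSG00000043410) on the minus strand and was at 47.0 and 60.4 TPM in wildtype against 20.7 and 26.3 TPM in cKO. The cKO level was 43.8% of the wildtype mean (log2 fold change -1.16 ± 0.29, SE, n = 2 per genotype; limma adjusted p = 0.172). *Hfm1* and *Msh4* changed by nearly the same amount in each cKO sample (-1.32 and -1.21 in replicate 1, -0.99 and -0.95 in replicate 2), and of all pairs among the 8 their profiles over the samples were the closest (Euclidean distance of centred log2(TPM + 1) 0.206).

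*Tex11* is the X-linked member, at chrX:100838648-101059667 (ENSMUSG00000009670) on the minus strand. Its product promotes synapsis and crossover formation, and its loss causes male infertility in mouse and human. It was at 16.9 and 25.4 TPM in wildtype against 71.5 and 31.2 TPM in cKO. Both cKO samples lie above wildtype, and they differ from each other by 2.29-fold. The 2.43-fold difference of the means missed the threshold (log2 fold change 1.15, 95% confidence interval 0.09 to 2.21, limma adjusted p = 0.333).

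The X chromosome, which is transcriptionally silenced in normal pachytene spermatocytes, had a median log2 fold change of 1.03 over 782 genes tested (1.39 for cKO replicate 1, 0.71 for replicate 2). Of these genes, 27.6% rose, and for 72.5% the cKO samples were both above the wildtype samples. *Tex11* took a middle place among them, since 54.1% of X-linked genes had a lower log2 fold change. Its neighbour *Slc7a3*, a cationic amino acid transporter, rose from 0.27 and 0.45 TPM to 15.6 and 4.70 TPM (log2 fold change 2.84, limma adjusted p = 0.131), while *Dlg3* on the other side had a log2 fold change of 0.36 (adjusted p = 0.889).

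**Figure D2:**
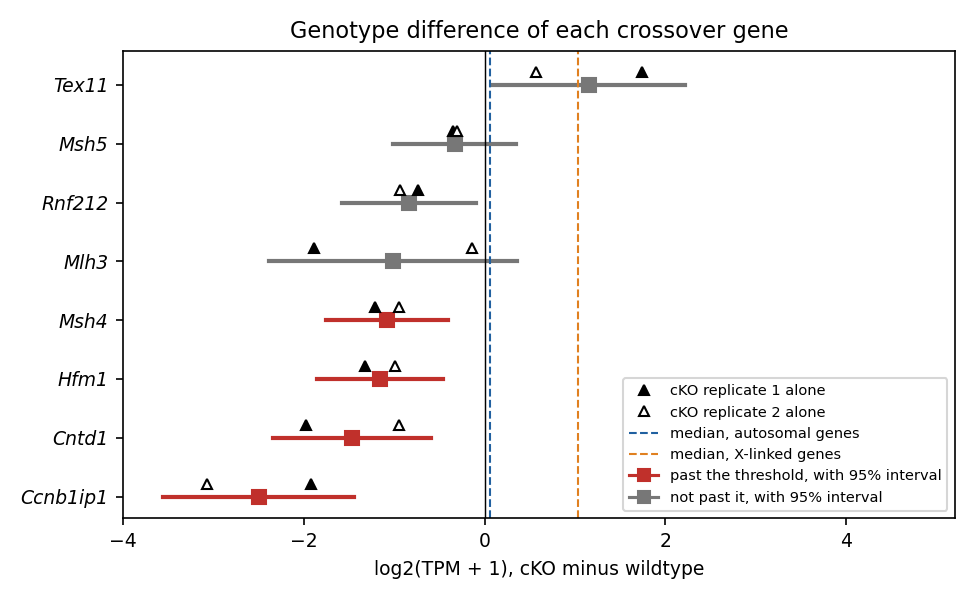
Log2 fold change (cKO minus wildtype) of the 8 genes as squares, red where past the threshold, with the medians of autosomal and X-linked genes as dashed lines. Bars span the 95% confidence intervals of limma and triangles give each cKO sample against the wildtype mean; the intervals of *Msh5* (-1.01 to 0.35) and *Mlh3* (-2.39 to 0.36) cross 0.

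*Ccnb1ip1* showed the largest fall of the 8. It encodes an E3 ligase that limits RNF212 at recombination sites and is required for crossovers in mouse. The gene lies at chr14:50789248-50807732 (ENSMUSG00000071470) on the minus strand and was at 48.6 and 43.6 TPM in wildtype against 11.4 and 4.60 TPM in cKO. The wildtype mean was 5.77-fold above the cKO mean (log2 fold change -2.50 ± 0.44, SE, n = 2 per genotype; limma adjusted p = 0.0847). Among autosomal genes tested, 0.0163% had a lower log2 fold change than this. The fall was larger in cKO replicate 2 (9.97% of the wildtype mean left) than in replicate 1 (24.7%). *Rnf212* was also lower in replicate 2, whereas *Cntd1*, *Hfm1*, *Msh4*, *Mlh3* and *Msh5* were lower in replicate 1.

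*Rnf212*, the SUMO-ligase-like protein gene that acts at the same sites in a dose-dependent way, lies at chr5:108729290-108774982 (ENSMUSG00000055385) on the minus strand. It was at 26.6 and 30.4 TPM in wildtype against 16.6 and 14.3 TPM in cKO. Its genotypes do not overlap, but the difference missed the threshold (log2 fold change -0.84, 95% confidence interval -1.58 to -0.10, limma adjusted p = 0.317). The ratio of *Ccnb1ip1* to *Rnf212* was 1.83 and 1.44 in wildtype and 0.685 and 0.321 in cKO. *Ccnb1ip1* was thus the more abundant of this pair in wildtype and the less abundant in cKO (log2 difference -1.79, exact permutation p = 0.33).

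The nearest genes were read beside *Ccnb1ip1*. *Ttc5*, a cofactor of p53 and p300, lies 3729 bases away on the same strand and also fell, from 40.8 and 50.2 TPM to 9.47 and 16.6 TPM (log2 fold change -1.77, limma adjusted p = 0.121). *Parp2*, a DNA repair gene 109 bases from the other end on the opposite strand, was at 31.2 and 27.4 TPM against 27.9 and 24.1 TPM (adjusted p = 0.882). The neighbour on one side thus passed the threshold in the same direction, and that on the other side did not pass it. *Ttc5* passed in all alternatives that kept every sample.

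*Cntd1* was the most abundant member in wildtype. It encodes a cyclin-related protein needed in mouse for CCNB1IP1 to gather at designated sites. The gene lies at chr11:101279012-101296317 (ENSMUSG00000078653) on the plus strand and was at 204 and 253 TPM in wildtype against 57.1 and 117 TPM in cKO. The cKO mean was 38.1% of wildtype (log2 fold change -1.46 ± 0.37, SE, n = 2 per genotype; limma adjusted p = 0.168), and replicate 1 was the lower of the cKO samples. The ratio of *Cntd1* to *Cdk2*, the kinase gene whose product marks designated sites, went from 1.65 and 1.85 in wildtype to 0.822 and 1.16 in cKO (log2 difference -0.84, exact permutation p = 0.33).

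The level of *Cntd1* is uncertain because the gene overlaps the autophagy gene *Becn1* on the opposite strand. The 2 genes share 3104 of the 4421 exonic bases of *Cntd1* (70.2%), and a further 82 bases are shared with *Coa3*. The library kit is not described as keeping strand, so reads from the shared bases cannot be told apart by strand. *Becn1* was at 216 and 253 TPM in wildtype, close to the values of *Cntd1*, and at 135 and 182 TPM in cKO (log2 fold change -0.57, limma adjusted p = 0.407). *Coa3* had a log2 fold change of -0.44 (adjusted p = 0.513).

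Of the 8 genes, *Mlh3* differed most between the cKO samples, by 3.73-fold. Its product is part of the endonuclease that resolves double Holliday junctions into crossovers. The gene lies at chr12:85234520-85270599 (ENSMUSG00000021245) on the minus strand and was at 24.7 and 31.7 TPM in wildtype, at 6.83 TPM in the first cKO sample (replicate 1) and at 25.4 TPM in the other. The genotypes overlap, and the difference missed the threshold (log2 fold change -1.01, 95% confidence interval -2.39 to 0.36, limma adjusted p = 0.515).

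**Figure D3:**
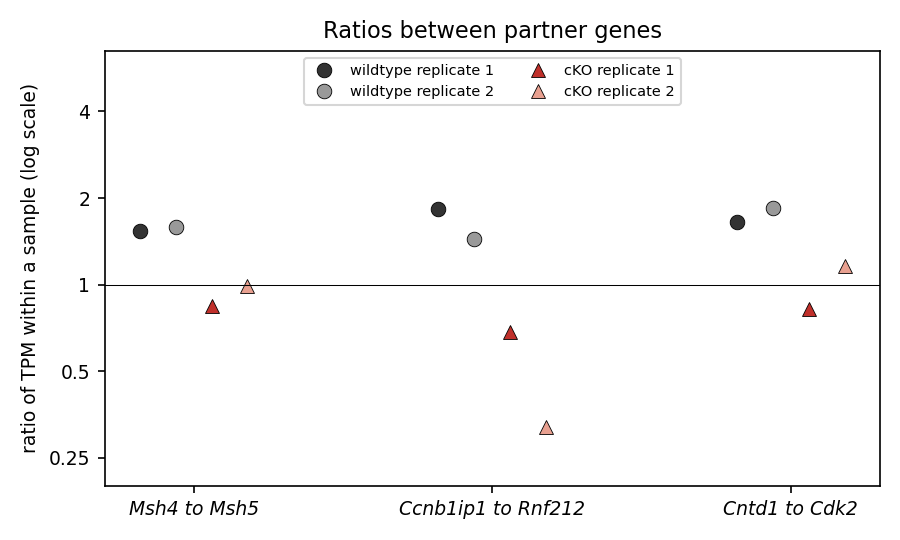
Ratio of TPM between partner genes in each sample (log axis). Points are single samples; *Msh4* to *Msh5*, *Ccnb1ip1* to *Rnf212* and *Cntd1* to *Cdk2* are lower in both cKO samples than in both wildtype samples, with cKO values of 0.845 and 0.988 for the first of these pairs.

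The order of the 8 genes by TPM differed between the genotypes. In wildtype *Cntd1* stood first, though its level is uncertain because of the overlap with *Becn1*. It was clear of *Hfm1*, *Ccnb1ip1* and *Msh4*, whose neighbouring ranges overlap. The lower group was *Msh5*, *Rnf212*, *Mlh3* and *Tex11*, again with each neighbour overlapping the next, and no sample of *Msh5* reached those of *Msh4*. In cKO *Cntd1* and *Tex11* overlapped at the top, followed after a gap by *Hfm1*, *Msh5*, *Msh4*, *Mlh3* and *Rnf212* without clear steps. *Ccnb1ip1* had the lowest mean, below both samples of *Rnf212*, but its range of 4.60 to 11.4 TPM includes the 6.83 TPM of *Mlh3* in cKO replicate 1. *Ccnb1ip1* thus went from rank 3 to rank 8, and *Tex11* from rank 8 to rank 2.

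Summed over the 8 genes, the level was 439 and 520 TPM in wildtype against 225 and 265 TPM in cKO. *Tex11* made up 3.85% and 4.89% of that sum in wildtype and 31.8% and 11.8% in cKO. *Ccnb1ip1* made up 11.1% and 8.39% in wildtype and 5.06% and 1.74% in cKO. The share of *Cntd1* was 46.5% and 48.7% in wildtype and 25.4% and 44.3% in cKO. Its level is uncertain because of the bases shared with *Becn1*, and so are the sum and all shares of it.

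The profiles over the 4 samples were compared with those of 9209 genes of at least 10 TPM on average, by the same distance. *Ccnb1ip1* had no close match: its nearest genes were *Gm35911* and *Mib2*, a ubiquitin ligase, at distances of 0.749 and 0.836. *Hfm1* was closest to *Lysmd4* and *Ttc26* (0.029 and 0.083), *Msh4* to *Myd88* and *Cpn1* (0.076 and 0.077), and *Cntd1* to *Dennd5b* and *Ccp110* (0.101 and 0.109). *Mlh3* was closest to *Fam221a* and *Gm5136* (0.091 and 0.116), *Rnf212* to *Cfl2* and *Hmgb2* (0.019 and 0.023), *Msh5* to *Gab1* and *P2rx4* (0.020 and 0.028), and the X-linked *Tex11* to the autosomal *Tmem176a* and *Slc16a7* (0.098 and 0.099). With 4 samples, such a distance is a description only.

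Other neighbours of the members did not pass the threshold. *Cdc7*, the cell cycle kinase gene next to *Hfm1*, had a log2 fold change of -0.75 (limma adjusted p = 0.304) and *Zfp644* one of -0.02. *Rabggtb* and *Asb17* beside *Msh4* had log2 fold changes of 0.61 and 1.86 (adjusted p = 0.475 and 0.545), the opposite sign to *Msh4*. The value of *Asb17* rests on cKO replicate 1 alone (0.67 and 0.76 TPM in wildtype, 22.7 and 0.64 TPM in cKO). *Sapcd1* and *Clic1* beside *Msh5* had -1.65 and 0.13 (adjusted p = 0.247 and 0.902), *Eif2b2* and *Acyp1* beside *Mlh3* -0.45 and -0.14, *Fgfrl1* beside *Rnf212* 0.32, and *Wnk4* and *Psme3* beside *Cntd1* -0.05 and -0.25.

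A wider list of genes for crossover formation, licensing and junction resolution was read in the same fit. Of 19 genes tested, 1 fell, beside 1.11% of all genes, and none rose (4 and 0 at an unadjusted p under 0.05). The median log2 fold change was -0.44 (-0.54 for cKO replicate 1, -0.28 for replicate 2). The gene past the threshold was *1700102P08Rik*, at 556 and 624 TPM in wildtype against 68.5 and 269 TPM in cKO (log2 fold change -2.11, limma adjusted p = 0.199), just inside it. It was matched to the list by symbol only, and no annotation used here gives it a role. Its call is thus no result about a known crossover gene, and none of the other genes tested passed. The median and the counts of this list include it. Both cKO samples lay below both wildtype samples for 9 of the 19 genes, an arrangement seen in 18.1% of all genes tested. The call is lost when all gene biotypes are tested, under rescaling to autosomal genes, quantile normalization, no trend or a robust fit, and without cKO replicate 1, while without cKO replicate 2 7 of the 19 passed.

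Among the genes with the next smallest p were those for nucleases and for the complex that dissolves junctions without crossing over. *Eme2*, a subunit of a MUS81 nuclease, was at 49.8 and 52.1 TPM in wildtype against 16.5 and 30.4 TPM in cKO (limma adjusted p = 0.235). *Gen1*, a Holliday junction resolvase gene, was at 15.5 and 14.8 TPM against 4.21 and 6.61 TPM (adjusted p = 0.247). *Rmi1*, of the BLM dissolution complex, was at 83.3 and 89.9 TPM against 43.6 and 58.1 TPM (adjusted p = 0.277). In each of these 3 the genotypes do not overlap, and none passed the threshold. *Cdk2* was at 124 and 137 TPM against 69.5 and 101 TPM (adjusted p = 0.376). *Mus81*, *Exo1*, *Slx1b* and *AI481877* (a synonym of *Shoc1* in RefSeq) had log2 fold changes between -0.06 and 0.09. *Slx4*, a scaffold for nucleases, was at 95.3 and 104 TPM in wildtype, with one cKO sample below (61.5 TPM) and the other above (175 TPM), log2 differences of -0.69 and 0.81.

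The mismatch repair paralogues of *Msh4*, *Msh5* and *Mlh3*, which act mainly on replication errors, gave no call by limma, and none at an unadjusted p under 0.05. The log2 fold changes of the 4 with the smallest p were -0.39 for *Msh3* (adjusted p = 0.622), -0.59 for *Pms1* (0.659), -0.17 for *Msh6* (0.873) and 0.20 for *Pms2* (0.878). Whether *Msh4* changed more than these relatives was not tested.

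**Figure D4:**
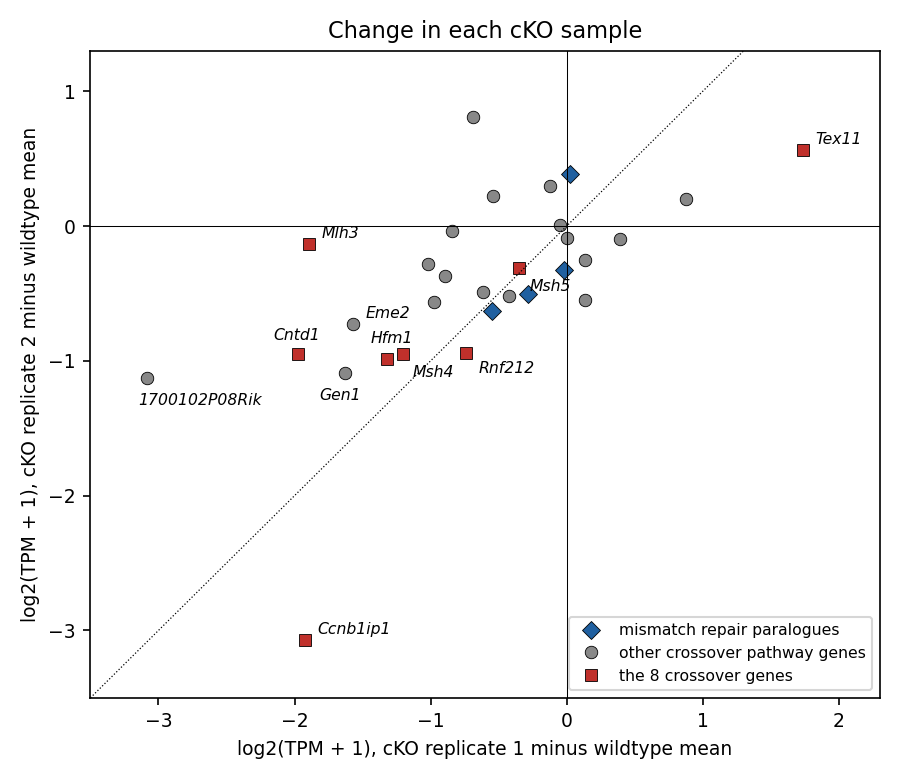
Log2 difference from the wildtype mean in cKO replicate 1 (x axis) and cKO replicate 2 (y axis) for the 8 crossover genes, other crossover pathway genes and mismatch repair paralogues; the dotted line marks equal values. *Cntd1* (-1.97 and -0.95) and *Mlh3* (-1.89 and -0.13) lie above the line, and *Ccnb1ip1* (-1.93 and -3.07) below it.

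Markers of stage and cell type were read beside these values. Sequencing depth is unknown, since the table holds no counts. The 8 pachytene spermatocyte markers summed to 7216 and 8607 TPM in wildtype against 4983 and 6249 TPM in cKO. All 8 log2 fold changes were negative (median -0.65), beside 43.9% of those of all genes tested. Of these markers 1 fell past the threshold, the synaptonemal complex gene *Sycp2*, beside 1.11% of all genes. Markers of preleptotene to zygotene cells (8 genes) summed to 373 and 432 TPM against 303 and 316 TPM, with none past the threshold by limma (3 lower at an unadjusted p under 0.05). Of these 8, 4 had positive and 4 negative log2 fold changes, with a median of 0.21. Spermatid markers (8 genes) summed to 12.5 and 18.1 TPM in wildtype, then 954 TPM in cKO replicate 1 but 52.0 TPM in replicate 2. *Spaca3* and *Spaca4* rose, beside 3.48% of all genes tested, and *Tnp1* and *Spaca4* are listed at 0 in some samples. Spermatogonial (7 genes), Sertoli (5), Leydig (5) and other somatic (6) markers gave no call by limma (1 at an unadjusted p under 0.05, the spermatogonial *Uchl1*), with sums of 157, 247, 426 and 267 TPM, of 321, 277, 343 and 320 TPM, of 91.6, 240, 760 and 108 TPM, and of 40.1, 36.7, 43.3 and 25.4 TPM in wildtype replicates 1 and 2 and cKO replicates 1 and 2. The part of these markers in the lower levels of the crossover genes was not tested. *Ccnb1ip1* and *Rnf212* were lowest in cKO replicate 2, and *Cntd1*, *Mlh3*, *Hfm1*, *Msh4* and *Msh5* were lowest in cKO replicate 1.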

How the data were processed

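RNA-seq was available for 2 wildtype and 2 cKO samples of 500 sorted cells; the H3K9me3 ChIP and input samples were not analysed here. The authors quantified single reads with kallisto (GRCm38) and summed transcripts to genes with sleuth. The deposited TPM columns were treated as a signal, because they sum to 1109725, 942186, 996166 and 946174 and not to a common total. The deposited p-value and q-value, the fold estimator on a natural log scale and its standard error (a score) are the authors' own comparison and were not used. No per-sample column was left out. No counts are given, so depth is unknown and a count model could not be applied.

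Genes coding for protein were kept where either genotype averaged over 0.1 TPM, and were compared on log2(TPM + 1), so fold changes of low genes are understated, using limma (version 3.58.1; R version 4.3.3) with a mean trend in eBayes (prior degrees of freedom 4.76), adjusted over all 19462 genes, with a threshold of 0.2 taken from the methods of the study. Ratios were tested by exact two-sided permutation. Sequences are from RefSeq. Plots used matplotlib 3.10.9 (Python 3.11.15).

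The 8 genes, lists and tests were chosen with earlier results of these data known. Named are the 8 genes, *Setdb1*, from the wider crossover, mismatch repair and regulator lists every gene past the threshold and the 4 with the smallest p, the 2 nearest profiles, and overlapping and nearest protein-coding genes. Other genes of these lists were named after their values were seen, and *Sycp2*, *Spaca3*, *Spaca4* and *Tnp1* as markers. *Rnf212b* and *Spo16* were not found under those names and were not analysed here. Single values of some listed genes are not reported here. Same-numbered samples are not described as pairs. The correlation of their deviations was 0.025, which with 2 samples per genotype cannot show whether they were handled together.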

Additional observations from a re-analysis of the deposited data

How the results depend on the processing

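All 8 genes kept their direction under all 14 alternatives. The number of the 8 that fell was 1 in place of 4 under quantile normalization (which moves the median log2 fold change of all genes from 0.08 to -0.11) and without a trend in eBayes; in both it was *Ccnb1ip1*, and *Hfm1*, *Msh4* and *Cntd1* had adjusted p between 0.207 and 0.292. Leaving out each sample gave 0 to 5 lower and 0 to 1 higher; without either wildtype sample 0 of all genes passed, so these fits do not bear on single calls. In the alternatives that kept every sample, *Ccnb1ip1* always passed. *Hfm1*, *Msh4* and *Cntd1* passed in all of these but quantile normalization and no trend. *Mlh3*, *Tex11*, *Rnf212* and *Msh5* passed in none of them. Of the other genes called, *Ttc5*, *Slc7a3* and *Spaca3* passed in all of them, and *Sycp2* in all but no trend. *Spaca4* missed under quantile normalization, no trend and a robust fit. *Gm4969* missed under rescaling, quantile normalization and no trend. *1700102P08Rik* missed with all biotypes, rescaling, quantile normalization, no trend and a robust fit. None of these genes reversed in any alternative. Of the wider list, *1700102P08Rik* included, 2 fell with a pseudocount of 0.1. With all biotypes, rescaling, quantile normalization, no trend or a robust fit, 0 fell. Over all genes, 56 fell and 392 rose without a trend, 430 rose under quantile normalization, and leaving out samples gave 0 to 1251 lower and 0 to 2586 higher.

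With replicate number as a block, 4 of the 8 genes and 2 of the wider list fell, and 318 of all genes fell and 1091 rose. No pairing of same-numbered samples is described (correlation of their deviations 0.025). Both cKO samples lay below all wildtype samples kept for 6 to 7 of the 8 genes when single samples were left out. Depth is unknown, and the size of change that 2 samples per genotype can detect was not measured.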
